A study of Arabidopsis thaliana with 12 samples.

Results

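The 31 genes described here are the chromatin and RNA regulators that set the transcript level of the flowering repressor FLC in Arabidopsis thaliana. They were taken by locus code from 6 groups, which are the FRI complex and its partners (6 genes), the PAF1 complex (6), the autonomous pathway (7), the demethylase REF6 (1), the vernalization genes (5) and Polycomb (6). All 31 were rows of the deposited table, which holds 23916 genes. Transcripts were measured by RNA sequencing of whole seedlings 10 days old, kept at 22 °C under days of 16 h light and nights of 8 h. Each of 4 genotypes had 3 libraries. T31A plants are labelled h3.3ko;HTR5 T31A, that is a knockout of histone H3.3 with a copy of the H3.3 gene HTR5 in which alanine replaces threonine 31. K36A plants are labelled h3.3ko;HTR5 K36A, with alanine in place of lysine 36 in the same gene. The third mutant is efs, which affects EFS, a methyltransferase for lysine 36 of histone H3, and Col is the wild type. The labels do not name the efs allele, the knockout alleles, the promoter of the HTR5 copy or the number of lines behind a genotype. Plants that lack H3.3 but carry a normal HTR5 copy were not analysed here, so the knockout, the added copy and the substitution cannot be told apart in T31A and K36A.

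FLC encodes a MADS-box protein that holds back the switch to flowering. The FRI complex raises FLC transcription and the PAF1 complex, which travels with RNA polymerase II, is needed for high FLC levels, while REF6 removes methyl groups from lysine 27 of histone H3. The autonomous pathway lowers FLC by processing its antisense and sense RNA and by changing its chromatin. In the cold, the proteins of the vernalization genes other than VRN1 act in or with Polycomb repressive complex PRC2 at FLC. LHP1 binds the mark that PRC2 writes. Col carries a defective FRI allele, so FLC is low in Col compared with late-flowering accessions.

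The target itself fell in all 3 mutants, and levels are given in TPM, the deposited transcript level scaled to gene length and library total. FLC measured 1.19, 1.13 and 1.18 TPM in T31A, 0.724, 0.602 and 0.604 TPM in K36A and 0.183, 0.275 and 0.327 TPM in efs, against 4.67, 5.13 and 4.45 TPM in Col. No mutant library reached the lowest Col library. The differences in log2(TPM + 1) were -1.405, -1.81 and -2.19, and at levels this low the added 1 makes them much smaller than the log2 ratios of the TPM. EFS averaged 17.8 ± 2.9, 17.0 ± 2.2 and 15.4 ± 1.0 TPM in T31A, K36A and efs and 15.5 ± 1.9 TPM in Col (SD, n = 3 each), so the efs label is not visible in the level of its transcript. AT5G10980, annotated as an H3.3 gene, averaged 16.5 ± 3.5 TPM in T31A, 20.7 ± 2.3 TPM in K36A, 219 ± 5.0 TPM in efs and 130 ± 20 TPM in Col. Between 17621000 and 34098032 reads per library were recovered from the TPM. Genes used to mark green tissue and root, 4 and 6 in number, were all above 1 TPM in some library of every genotype. The green-tissue sum was 17725 to 18419 TPM in efs, against 21841 to 24133 TPM in Col, with 3 of 4 called lower. LHCB2.1 was also called lower in T31A, and LHCB2.1 and LHB1B1 in K36A. The root sum was 2087 to 2180 TPM in T31A, against 2505 to 2678 TPM in Col, with 3 of 6 called lower. Among the root genes, SHR and EXPA7 were called higher in K36A, while in efs EXPA7 was higher and GL2 lower. Flower genes summed to 9.55 to 10.3 TPM in T31A, 31 to 37.4 TPM in K36A and 23.3 to 26.5 TPM in efs, against 10.9 to 12.6 TPM in Col, with SEP3 called in each, lower in T31A and higher in the others. Of 2 tested shoot meristem genes, both STM and KNAT1 were called lower in K36A and KNAT1 in efs. Genes of dry seed summed to 36.4 to 45.2 TPM in T31A, 10.4 to 15.5 TPM in K36A and 39.6 to 44.2 TPM in efs, against 1.48 to 2.59 TPM in Col, with 4, 3 and 2 of 4 called higher, and the part of such cell differences in the results was not tested. In bulk tissue, fewer cells of a type and less RNA per cell cannot be told apart.

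Against this drop in their target, few regulators changed, and with all libraries on the deposited scale the calls against Col were increases. A gene was called when the adjusted p of a two-sided moderated test (limma, Benjamini-Hochberg over 19984 genes) was under 0.05, and each difference is in log2(TPM + 1), a scale that shrinks the changes of low genes. Of the 30 regulators that passed the filter on low values, 2 were called against Col in T31A, both higher, where 26.8% of all tested genes were called and 15.7% were called higher. In K36A 3 were called, all higher, beside 31.5% of all tested genes in either direction and 22.6% higher. In efs 8 were called, all higher, beside 48.8% in either direction and 31.4% higher. The called share of the regulators, 6.67% in T31A, 10.0% in K36A and 26.7% in efs, was thus below that of all genes in each mutant. Unadjusted p was under 0.05 for 4, 6 and 10 of the 30.

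The differences were also small. For T31A the median over the 30 regulators was 0.00, for K36A 0.08 and for efs 0.13, beside 0.04, 0.095 and 0.12 over all tested genes. Single differences spanned -0.15 to 0.40 for T31A, -0.22 to 0.33 for K36A and -0.20 to 0.50 for efs. The 95% interval of the difference stayed within 1.5-fold of Col in either direction for 30, 30 and 28 of the 30. This bound is on TPM + 1, so the fold in TPM itself can be larger, most of all for low genes. Directions near 0 depend on the scaling. With median-of-ratios factors in place of the deposited scaling, the medians of all genes became -0.005, -0.004 and 0.018. The called regulators then numbered 2 higher and 1 lower in T31A, 0 higher and 2 lower in K36A and 4 higher and 1 lower in efs. Decreases were also called on the deposited scale in 3 of the alternatives. PHP (-0.29, adjusted p = 0.0445) and VRN1 (-0.34, adjusted p = 0.0263) were lower in efs without Col replicate 3, beside 4 higher regulators. REF6 was lower in K36A without K36A replicate 1 (adjusted p = 0.0399) and at a mean TPM of at least 5 (adjusted p = 0.0494).

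**Figure D1:**
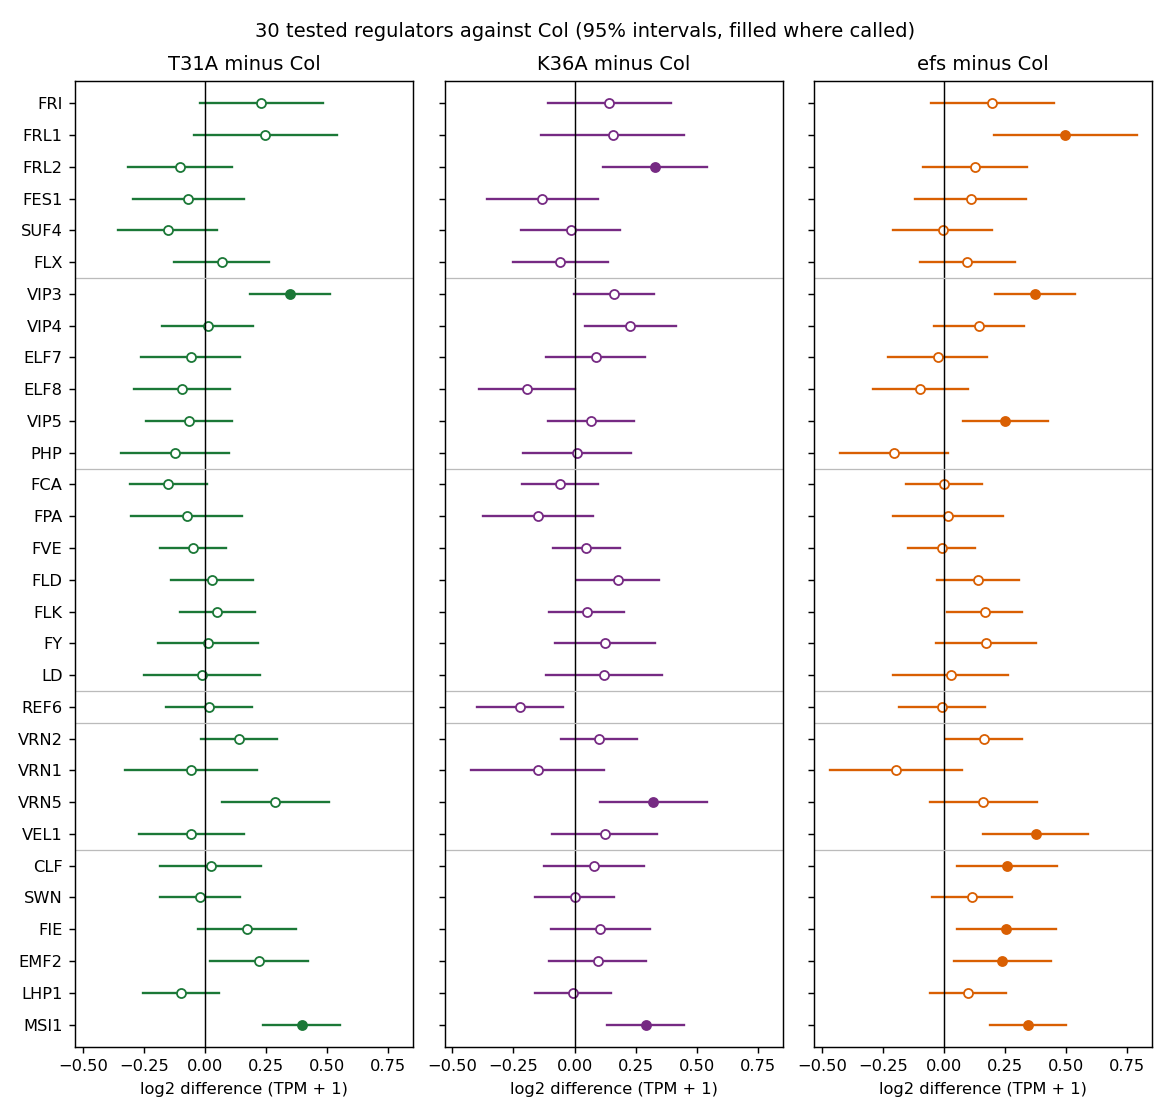
Log2 differences from Col of the 30 tested regulators, with one panel for each mutant; points are estimates, lines are 95% intervals, filled points were called and grey lines part the 6 groups. The T31A panel has 2 filled points, K36A 3 and efs 8, and all lie to the right of 0.

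Within the FRI complex, the scaffold gene FRI and most partners did not pass the test, and 1 gene of the FRL family was called in each of K36A and efs. FRI (AT4G00650) averaged 11.6 ± 0.37 TPM in T31A, 10.8 ± 0.29 TPM in K36A, 11.3 ± 0.74 TPM in efs and 9.89 ± 2.3 TPM in Col, with differences of 0.23, 0.14 and 0.20 and adjusted p of 0.163, 0.379 and 0.176. Its Col libraries held 12.5, 8.35 and 8.75 TPM, so that a single Col library lay above all 9 mutant libraries and the other two below them.

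FRL1 (AT5G16320, chr5:5344495-5346106, TAIR10.1), a relative of FRI, rose in efs. Its levels were 9.57, 9.29 and 8.92 TPM in T31A, 10.7, 7.93 and 7.57 TPM in K36A and 9.52, 11.8 and 12.5 TPM in efs, against 6.37, 7.81 and 8.95 TPM in Col. Each efs library lay above each Col library, whereas the ranges of T31A and K36A overlapped that of Col. The efs difference was 0.50 (SE 0.14, adjusted p = 0.00813), and those of T31A and K36A were 0.25 and 0.16 with adjusted p of 0.203 and 0.410. FRL1 had the lowest level for its exon length among the tested regulators, 4.97 in efs and 3.44 in Col in exon-scaled reads, that is recovered reads per kilobase of exon in a library scaled to 1000000 reads.

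FRL2 (AT1G31814, chr1:11412392-11414502, TAIR10.1), its other relative, rose in K36A. FRL2 stood at 17.4, 17.4 and 15.6 TPM in T31A, 22.5, 24.3 and 22.3 TPM in K36A and 19.3, 19.1 and 21.1 TPM in efs, against 21.7, 17.2 and 15.8 TPM in Col. The K36A libraries were the highest of all 12, although Col replicate 1 came close to them. The difference from Col was 0.33 (SE 0.10, adjusted p = 0.0218), and T31A was lower than K36A by a log2 difference of -0.43 (adjusted p = 0.00477). The call against Col was lost without K36A replicate 2, Col replicate 2 or Col replicate 3, with adjusted p of 0.0720, 0.0711 and 0.0952. Median-of-ratios factors also ended the call (0.23, adjusted p = 0.0687), while the difference between T31A and K36A was called under all 20 alternatives.

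The other partners, the zinc-finger genes FES1 (AT2G33835) and SUF4 (AT1G30970) and the coiled-coil gene FLX (AT2G30120), were called in no comparison. Their differences from Col lay between -0.15 and 0.11. SUF4, which binds the FLC promoter, was expressed at 32.8, 36.1 and 36 exon-scaled reads in T31A, K36A and efs and at 36.7 in Col, far above the 5.67, 5.41 and 6.43 of FES1, for which Col had 5.95.

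Of the 6 PAF1 complex genes, VIP3 and VIP5 rose and the rest were not called. The called genes numbered 1 in T31A, 0 in K36A and 2 in efs, beside 15.7%, 22.6% and 31.4% of all tested genes called higher. VIP3 (AT4G29830, chr4:14597559-14599300, TAIR10.1) encodes a WD-repeat protein that is also a subunit of the SKI complex, which feeds RNA to the exosome. It had 24.3, 22.4 and 24.3 TPM in T31A, 21.9, 20.04 and 20.04 TPM in K36A and 26.4, 22.2 and 23.8 TPM in efs, against 17.8, 18.9 and 18.4 TPM in Col. All 9 mutant libraries lay above all 3 Col libraries. The difference was 0.35 in T31A (SE 0.08, adjusted p = 0.00378) and 0.37 in efs (adjusted p = 0.00104), and 0.16 in K36A with an adjusted p of 0.121. The T31A and efs calls were kept under all 20 alternatives. VIP3 overlaps AT4G29840 by 85 bases and AT4G08225 by 616 bases on the opposite strand, and the use of strand in counting is not stated. AT4G29840, at a mean of 104 TPM, differed from Col by 0.31 in T31A (adjusted p = 0.0105) and by -0.135 in efs (adjusted p = 0.179), and the part of its reads in the VIP3 level was not tested.

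VIP5 (AT1G61040), the homologue of yeast Rtf1, had 31.4, 29.1 and 31.5 TPM in T31A, 34, 35.1 and 32 TPM in K36A and 38.0, 35.9 and 41.5 TPM in efs, against 36.2, 30.1 and 30.3 TPM in Col. The efs range overlapped that of Col through Col replicate 1. The efs difference of 0.25 (adjusted p = 0.0204) was lost without efs replicate 3, Col replicate 2 or Col replicate 3, with adjusted p of 0.0968, 0.0791 and 0.0740, and under both other scalings. T31A was lower than efs by -0.32 (adjusted p = 0.00698), and this held under all 20 alternatives.

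VIP4 (AT5G61150), ELF7 (AT1G79730) and ELF8 (AT2G06210) are the homologues of yeast Leo1, Paf1 and Ctr9, and PHP (AT3G22590) is that of Cdc73. None was called against Col, with differences from -0.12 to 0.01 for T31A, -0.19 to 0.23 for K36A and -0.20 to 0.14 for efs. Col replicate 1 was the highest Col library for each of them. With median-of-ratios factors ELF8 was lower in K36A (-0.30, adjusted p = 0.0131) and PHP was lower in efs (-0.31, adjusted p = 0.0222). Without Col replicate 1, VIP4 was higher in K36A (0.33, adjusted p = 0.00242) and efs (0.25, adjusted p = 0.00905) and ELF7 in K36A (0.21, adjusted p = 0.0412), and VIP4 was also called in K36A with the replicate block (0.23, adjusted p = 0.0414).

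The bases just before VIP3 are shown because it is 1 of 2 regulators with a called rise in T31A and carries 2 copies of the site II element, TGGGCC or its reverse complement GGCCCA. MSI1, the other, also has 2 copies, but both lie beyond the 10 bases that separate it from its annotated neighbour TTL. VEL1, a called gene described with the vernalization genes, carries 1 copy. Sequences are from the RefSeq TAIR10.1 genome, 5′ to 3′ on the strand of the gene, and end at the base before the annotated start, with site II in capitals. The VIP3 stretch (chr4:14597517-14597558, plus strand) is all that lies between it and its neighbour CFIM-25. The VEL1 stretch is chr4:14790502-14790561, minus strand.
VIP3: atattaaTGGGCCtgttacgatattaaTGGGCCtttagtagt
VEL1: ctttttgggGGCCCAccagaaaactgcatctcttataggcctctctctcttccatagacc

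Site II occurred on either strand within 250 bases upstream of 9 of the 31 regulators (29.0%), and of 13.7% of 27443 protein-coding genes. The 9 were VIP3, VIP4, ELF7, PHP, FES1, FLK, VRN2, VEL1 and MSI1. Of these VIP3, VEL1 and MSI1 were called against Col, all 3 in efs, where 8 of the 30 tested regulators and 48.8% of all tested genes were called. A link between the element and the calls was not tested. At least 2 copies, counting each strand, were found for VIP3, MSI1 and FES1, 9.68% of the regulators and 5.27% of all promoters. The telo box AAACCCTA was present in 2 (6.45%, beside 4.49% of all), the G-box CACGTG in 3 (9.68%, beside 6.49%) and the evening element AAAATATCT in 0 (2.36% of all). Genes that start on the other strand within 250 bases of the 6 regulators described in full were UCH1 beside FRL1, CFIM-25 beside VIP3 and TTL beside MSI1. CFIM-25 differed from Col by 0.33, 0.09 and 0.235 in T31A, K36A and efs, with adjusted p of 0.0648, 0.621 and 0.136.

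None of the 7 autonomous pathway genes was called in any mutant against Col, where 26.8%, 31.5% and 48.8% of all tested genes were called in T31A, K36A and efs. An unadjusted p under 0.05 was reached by 0 of them in T31A, by FLD in K36A and by FLK in efs. The differences spanned -0.15 to 0.05 for T31A, -0.15 to 0.18 for K36A and -0.01 to 0.17 for efs. FVE (AT2G19520), a WD-repeat protein of histone deacetylase complexes, averaged 31.8 ± 1.8 TPM in T31A, 34.1 ± 1.5 TPM in K36A, 32.6 ± 0.89 TPM in efs and 32.9 ± 0.53 TPM in Col. FLD (AT3G10390), a homologue of the lysine demethylase LSD1, averaged 17.6 ± 1.2, 19.5 ± 0.48 and 19.0 ± 0.43 TPM in T31A, K36A and efs and 17.2 ± 1.6 TPM in Col. Its 3 K36A libraries lay above all Col libraries, at a difference of 0.18 (adjusted p = 0.0993).

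Of the RNA-binding members, FCA (AT4G16280) averaged 12.5 ± 0.24, 13.4 ± 0.71 and 14 ± 0.30 TPM in T31A, K36A and efs and 14 ± 0.88 TPM in Col. The 3 T31A libraries of FCA lay below all Col libraries, with a difference of -0.15 (adjusted p = 0.145) that was called with median-of-ratios factors (-0.20, adjusted p = 0.0383). FPA (AT2G43410) averaged 22.5 ± 2.1, 21.3 ± 1.7 and 23.9 ± 1.1 TPM in T31A, K36A and efs and 23.9 ± 3.8 TPM in Col. The KH-domain gene FLK (AT3G04610) averaged 30.1 ± 1.6, 30.03 ± 1.3 and 32.6 ± 0.30 TPM in T31A, K36A and efs and 29.0 ± 2.4 TPM in Col. Among these 3 genes, the efs libraries of FLK were the single set wholly above Col.

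FY (AT5G13480), a polyadenylation factor that works with FCA, averaged 10.4 ± 0.67, 11.37 ± 0.083 and 11.8 ± 0.42 TPM in T31A, K36A and efs and 10.4 ± 1.6 TPM in Col. The homeodomain gene LD (AT4G02560) averaged 18.5 ± 1.3, 20.4 ± 0.71 and 19.0 ± 0.62 TPM in T31A, K36A and efs and 18.9 ± 4.0 TPM in Col. For both, Col replicate 1 set the upper end of the Col range. Without that library FLD, FY and LD were called higher in K36A (0.23, 0.235 and 0.28, adjusted p = 0.0319, 0.0381 and 0.0101). FLK and FY were then called higher in efs (0.21 and 0.28, adjusted p = 0.0271 and 0.0113).

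REF6 (AT3G48430) had the largest negative difference in K36A, short of the threshold. It measured 18.3, 18.5 and 16.7 TPM in T31A, 16.2, 13.6 and 15.1 TPM in K36A and 17.3, 16.9 and 18.4 TPM in efs, against 19.1, 16.7 and 17.1 TPM in Col. All K36A libraries lay below all Col libraries, the difference was -0.22 (SE 0.08, adjusted p = 0.0521), and with median-of-ratios factors it was called at -0.325 (adjusted p = 0.00354). T31A was higher than K36A by 0.24 (adjusted p = 0.0423), a call kept under 12 of 20 alternatives. It was lost without T31A replicate 1 or 2, K36A replicate 2 or 3, or any efs library, with adjusted p of 0.0516 to 0.161.

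Among the vernalization genes VIN3, which cold induces, was close to absent, as in plants that have seen no cold. VIN3 (AT5G57380) had 1, 0 and 2 reads in T31A, 0, 1 and 1 in K36A and 0 in each library of efs and Col. A count of 0 allows up to 3 reads, which is 0.0636 to 0.124 TPM in these libraries, so no difference was detectable at this depth. It was the 1 regulator that the filter left out.

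VRN5 (AT3G24440, chr3:8875784-8878481, TAIR10.1), a PHD-finger partner of PRC2, had 19.1, 19.0 and 17.8 TPM in T31A, 19.3, 17.0 and 21.3 TPM in K36A and 18.1, 15.6 and 17.3 TPM in efs, against 13.1, 15.3 and 17.2 TPM in Col. The T31A libraries lay above all Col libraries and those of K36A and efs overlapped Col. VRN5 rose in K36A by 0.32 (SE 0.10, adjusted p = 0.0270), and the T31A difference of 0.29 had an adjusted p of 0.0507. The K36A call was lost without K36A replicate 1 or 3 and without Col replicate 1 or 2, with adjusted p of 0.0710, 0.109, 0.0798 and 0.0544, and also on the median-of-ratios scale (0.22, adjusted p = 0.133).

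VEL1 (AT4G30200, chr4:14786532-14790501, TAIR10.1), a relative of VRN5 in the same complex, rose in efs. It measured 53.3, 61.6 and 49.9 TPM in T31A, 61.7, 54.5 and 71.3 TPM in K36A and 70.3, 74.1 and 78.2 TPM in efs, against 53.9, 54.7 and 62.6 TPM in Col. The efs libraries lay above every Col and every T31A library. The difference was 0.38 from Col (SE 0.10, adjusted p = 0.00663), and T31A was lower than efs by -0.43 (adjusted p = 0.00333), both called under all 20 alternatives. Among the regulators VEL1 had the highest level for its exon length in efs, with 47.1 exon-scaled reads there and 36.5 in Col.

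VRN2 (AT4G16845), a PRC2 subunit related to EMF2, and VRN1 (AT3G18990), a DNA-binding B3 protein, were not called. VRN2 averaged 15.1 ± 0.67, 14.7 ± 0.52 and 15.4 ± 0.28 TPM in T31A, K36A and efs and 13.7 ± 0.93 TPM in Col. VRN1 averaged 22.2 ± 0.82, 20.8 ± 1.5 and 20.1 ± 1.1 TPM in T31A, K36A and efs and 23.6 ± 6.0 TPM in Col, whose 3 libraries held 30.3, 21.8 and 18.7 TPM.

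Polycomb held the one regulator called in every mutant. MSI1 (AT5G58230, chr5:23556012-23558245, TAIR10.1) encodes a WD-repeat histone-binding protein shared by PRC2 and by CAF-1, the complex that deposits H3.1 during DNA replication. It had 38.3, 38.7 and 38.9 TPM in T31A, 36.5, 33.3 and 37.9 TPM in K36A and 36.4, 36.9 and 38.4 TPM in efs, against 27.9, 27.4 and 32.3 TPM in Col. All 9 mutant libraries lay above all Col libraries. The differences were 0.40 in T31A (SE 0.07, adjusted p = 0.00113), 0.29 in K36A (adjusted p = 0.00812) and 0.34 in efs (adjusted p = 0.00143), and no 2 mutants were called different. The T31A and efs calls held under all 20 alternatives, and the K36A call under 18, with 0.19 and an adjusted p of 0.0709 for median-of-ratios factors.

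MSI1 overlaps AT5G58240 on the other strand by 132 bases, and AT5G58240 was not called in any mutant (0.13, -0.11 and 0.23, adjusted p = 0.422, 0.488 and 0.107). TTL, which starts 10 bases from it on the other strand, differed by 0.01, 0.17 and 0.34 in T31A, K36A and efs, of which the efs value was called (adjusted p = 0.000774). Of its 4 relatives, named after their values were seen, FVE, MSI2 and MSI5 were not called against Col. MSI3 differed by -0.22 in T31A (adjusted p = 0.0253), -0.04 in K36A and 0.18 in efs (adjusted p = 0.0332). Summed over 5 marker genes of dividing cells, levels were 96.5 to 101 TPM in T31A, 104 to 118 TPM in K36A, 85.9 to 99.0 TPM in efs and 85.6 to 95.7 TPM in Col. Of these markers, 0, 2 and 0 were called higher and 0, 0 and 1 lower in T31A, K36A and efs, and their part in the MSI1 level was not tested.

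In efs, 3 further PRC2 genes were called with MSI1, so that 4 of 6 Polycomb genes rose there, where 48.8% of all tested genes were called and 31.4% were called higher. In T31A and K36A 1 of 6 rose, beside 15.7% and 22.6% of all genes, and whether the mutants differed in these counts was not tested. Of the 4 efs calls, 3 were lost with median-of-ratios factors. Over the 6 genes the median difference stood at 0.10 for T31A, 0.09 for K36A and 0.25 for efs. The catalytic subunit CLF (AT2G23380) had 9.77, 9.54 and 8.90 TPM in T31A, 9.48, 9.85 and 10.2 TPM in K36A and 12.2, 10.6 and 11.0 TPM in efs, against 10.8, 8.45 and 8.61 TPM in Col. Its efs libraries overlapped the Col range through Col replicate 1, and the difference was 0.26 (adjusted p = 0.0386).

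FIE (AT3G20740), the WD-repeat core subunit, had 14.1, 15.1 and 14.5 TPM in T31A, 13.0, 14.4 and 14.1 TPM in K36A and 15.8, 16.1 and 14.5 TPM in efs, against 14.3, 13.4 and 10.8 TPM in Col. The efs difference was 0.26 (adjusted p = 0.0364), with no overlap with Col. EMF2 (AT5G51230), the zinc-finger subunit of the PRC2 of vegetative growth, had 14.8, 15.5 and 13.7 TPM in T31A, 13.4, 11.7 and 14.99 TPM in K36A and 14.9, 14.7 and 14.8 TPM in efs, against 11.2, 13.3 and 12.8 TPM in Col. EMF2 differed by 0.24 in efs (adjusted p = 0.0461), again with no overlap. Its T31A libraries also lay above all Col libraries, without a call. In the 12 fits that left out 1 library, the EMF2 difference was 0.156 to 0.267 in T31A and 0.173 to 0.284 in efs. Neither CLF, FIE nor EMF2 was called different between any of the mutants, so their rise is not shown to be particular to efs.

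The efs calls of CLF, FIE and EMF2 depended on the processing. CLF kept its call under 12, FIE under 14 and EMF2 under 6 of 20 alternatives, and all 3 lost it with median-of-ratios factors, at differences of 0.16, 0.15 and 0.14 with adjusted p of 0.134, 0.176 and 0.253. CLF was lost without efs replicate 1 or 3 or Col replicate 2 or 3, with adjusted p of 0.145, 0.0681, 0.139 and 0.125. FIE was lost without efs replicate 1 or 2 or Col replicate 3, with adjusted p of 0.0976, 0.105 and 0.180. EMF2 was called in 3 of the 12 fits that left out 1 library, those without K36A replicate 2, K36A replicate 3 or Col replicate 2, and the adjusted p of the other 9 was 0.0510 to 0.136.

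SWN (AT4G02020), the other catalytic subunit in seedlings, and LHP1 (AT5G17690), the reader of lysine 27 methylation, were not called against Col. SWN averaged 24.0 ± 1.2, 24.4 ± 2.2 and 26.4 ± 1.1 TPM in T31A, K36A and efs and 24.3 ± 1.1 TPM in Col. For its exon length it was expressed above CLF, with 18.5 exon-scaled reads in efs beside 7.48 for CLF, and with 17.2 beside 6.22 in Col. LHP1 averaged 18.3 ± 0.23, 19.6 ± 1.7 and 21.1 ± 0.78 TPM in T31A, K36A and efs and 19.6 ± 0.64 TPM in Col. Its T31A libraries lay below all Col and all efs libraries, and T31A was lower than efs by -0.20 (adjusted p = 0.0451), a call kept under 8 of 20 alternatives. Among the fits that left out 1 library it held without K36A replicate 1 or 2 or Col replicate 1, and the adjusted p of the other 9 was 0.0512 to 0.143.

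**Figure D2:**
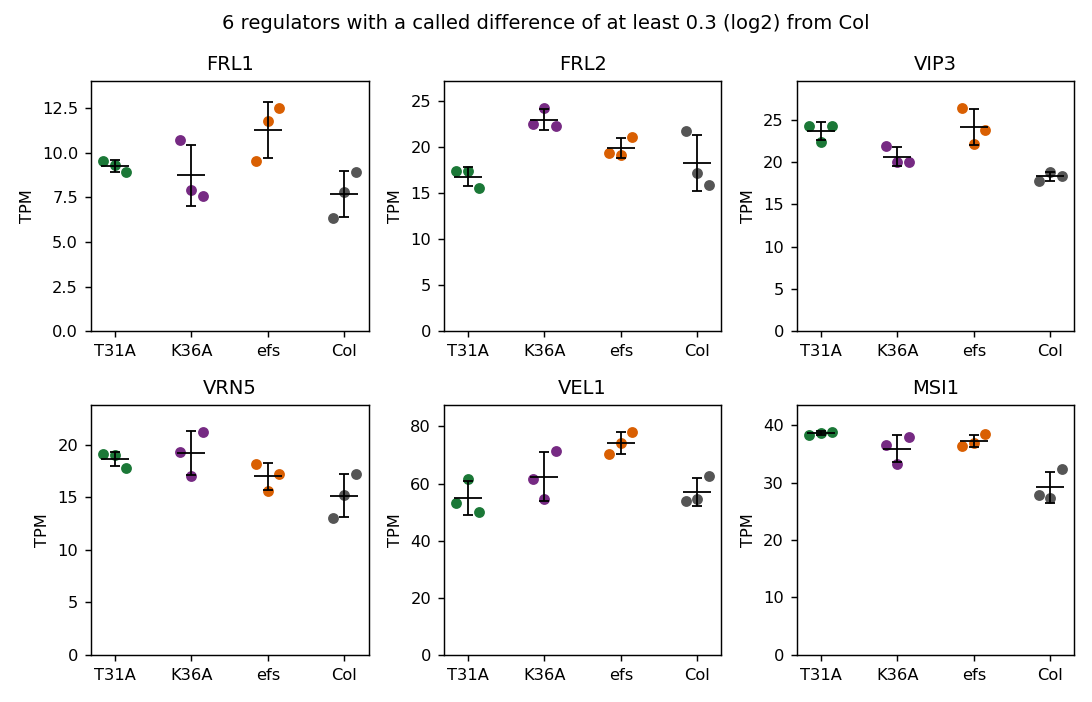
TPM of the 6 regulators with a called difference of at least 0.3 from Col; points are single libraries, horizontal bars the genotype mean and whiskers 1 SD (n = 3). For VIP3 and MSI1 all 9 mutant points lie above the 3 Col points, for FRL1 and VEL1 the efs points lie above Col, and for VRN5 the K36A points overlap Col.

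Between mutants, few regulators differed. T31A and K36A differed in 2 regulators, FRL2 and REF6, where 28.2% of all tested genes were called. T31A was lower than efs in 3, VIP5, VEL1 and LHP1, beside 39.1% of all genes. K36A was lower than efs in VIP3 alone (-0.21, adjusted p = 0.0406), beside 37.4%, and that call was kept under 13 of 20 alternatives. It was lost without T31A replicate 1 or 3, K36A replicate 2 or 3, or efs replicate 1 or 3, with adjusted p of 0.0522 to 0.186. Unadjusted p was under 0.05 for 4, 5 and 6 of the 30 regulators in these 3 comparisons. The comparisons with Col share the 3 Col libraries, so their values are set side by side and not compared with each other.

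The Col group has a library that stands apart, for these genes and over all tested genes. Of the 30 tested regulators, 22 had their highest Col value in Col replicate 1, where the median deviation from the Col mean was 0.11 log2 units, beside 0.058 over all genes. In the other 11 libraries the median deviation of the regulators lay between -0.073 and 0.033, and that of all tested genes between -0.028 and 0.024. The share of all genes with their highest Col value in Col replicate 1 was not counted. Without Col replicate 1 the called regulators numbered 3 in T31A, 8 in K36A and 13 in efs, all higher, of which 2, 2 and 7 were also called with all libraries. In the same fits 28.4%, 36.5% and 51.8% of all tested genes were called, so the called share of the regulators stayed below that of all genes. FRI was then called higher in T31A, K36A and efs, at 0.40, 0.31 and 0.37 with adjusted p of 0.00235, 0.00924 and 0.00198. Col replicate 1 held the highest Col value of FRI and of most regulators, so leaving it out lowers their Col means. The 3 FRI calls also share the same 2 remaining Col libraries. The cause of the difference between the Col libraries was not tested.

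**Figure D3:**
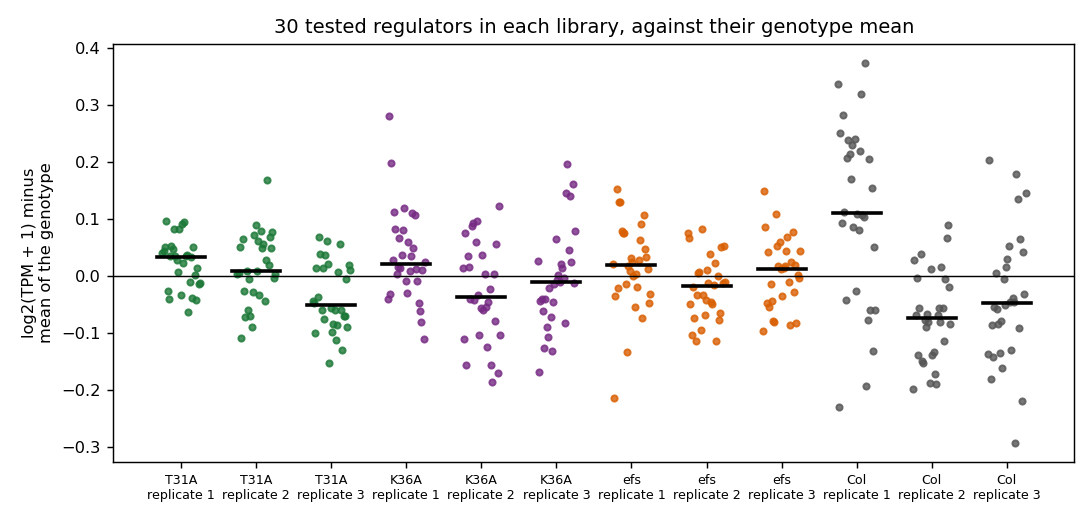
Deviation of each of the 30 tested regulators in each library from the mean of its genotype, on the log2(TPM + 1) scale; points are genes and bars the median over them. The bar of Col replicate 1 stands at 0.11, above those of the other 11 libraries.

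Genes that work with these regulators were taken from 6 companion lists with 54 tested genes. For T31A 7 of these rose and 3 fell, for K36A 8 rose and 1 fell, and for efs 16 rose and 1 fell, with called shares of 18.5%, 16.7% and 31.5%, all below the shares of all genes given above (26.8%, 31.5% and 48.8%). None of the 8 listed H3K4 and H3K36 methyltransferase and COMPASS genes was called against Col, with an unadjusted p under 0.05 for 1 of them in each mutant. The list of other Polycomb and VAL genes had 4 higher and 2 lower of 12 in T31A, 1 higher in K36A, and 7 higher and 1 lower in efs. These are called shares of 50.0%, 8.33% and 66.7%, beside the same 26.8%, 31.5% and 48.8%, with medians of 0.07, 0.04 and 0.275. Under median-of-ratios factors K36A had 0 higher and 2 lower. The T31A count was 3 without T31A replicate 1, 2 or 3 or Col replicate 2, and 2 with the 2 groups alone. The K36A count was 0 without K36A replicate 1 or 3 or Col replicate 3, and 2 without K36A replicate 2, efs replicate 3 or Col replicate 1 or 2.

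In that list the PRC1 ring-finger gene BMI1A rose in all 3 mutants. BMI1A averaged 8.94 ± 0.19, 8.20 ± 0.93 and 11.0 ± 0.60 TPM in T31A, K36A and efs and 6.44 ± 0.50 TPM in Col, with differences of 0.42, 0.30 and 0.69 (adjusted p = 0.00434, 0.0242 and 3.26e-05). The K36A call was lost on the median-of-ratios scale (0.21, adjusted p = 0.0933), and without K36A replicate 1, K36A replicate 3 or Col replicate 3 (adjusted p = 0.0877, 0.0900 and 0.0884). Quantile normalization and the 2 groups alone also ended it (adjusted p = 0.104 and 0.0968). RING1A, its partner in PRC1, averaged 8.46 ± 0.51, 7.69 ± 0.33 and 10.4 ± 0.49 TPM in T31A, K36A and efs and 6.60 ± 0.87 TPM in Col. It rose by 0.32 in T31A (adjusted p = 0.0216) and 0.59 in efs (adjusted p = 0.000142), and the T31A call was lost without T31A replicate 1 or 3 or Col replicate 2 or 3 (adjusted p = 0.0588, 0.0842, 0.0531 and 0.0879). Efs was above K36A in both genes, with K36A minus efs at -0.39 in each (adjusted p = 0.00464 for BMI1A and 0.00455 for RING1A). RING1B, of the same list, went the other way in T31A, where it was called lower, and was not called against Col in K36A or efs. No gene of the list was called lower in T31A without T31A replicate 2 or 3.

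ULT1, a SAND-domain protein that opposes Polycomb, averaged 15.4 ± 1.1, 7.16 ± 0.47 and 15.5 ± 0.96 TPM in T31A, K36A and efs and 8.32 ± 1.1 TPM in Col. It rose in T31A and efs by 0.82 and 0.83 (adjusted p = 3.18e-05 and 9.42e-06). K36A was at -0.18 (adjusted p = 0.171) and differed from both other mutants, with T31A minus K36A at 1.004 (adjusted p = 4.74e-06) and K36A minus efs at -1.01 (adjusted p = 1.78e-06). JMJ30, a JmjC demethylase, rose in all 3 mutants, by 0.81, 0.42 and 0.70, and averaged 64.7 ± 2.5, 49.1 ± 1.2 and 59.7 ± 4.0 TPM in T31A, K36A and efs and 36.4 ± 3.2 TPM in Col. AT5G46910, of the same list, was called in K36A alone among the comparisons with Col (0.32, adjusted p = 0.0399), and kept the call under 8 of 20 alternatives and in 4 of the 12 fits that left out 1 library.

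Among RNA-processing and deacetylation partners of the autonomous pathway, 2 were higher and 1 lower of 15 in T31A and in K36A, and 4 were higher in efs. The called shares were 20% in T31A and in K36A and 26.7% in efs, below the shares of all genes. The T31A count was 0 without T31A replicate 1 and with the 2 groups alone, and 1 without T31A replicate 3 or Col replicate 3. With the 2 groups alone K36A had 1. The arginine methyltransferase PRMT10 rose in all 3, by 0.28, 0.40 and 0.31 (adjusted p = 0.0156, 0.00184 and 0.00519). Its T31A call was lost without T31A replicate 1 or Col replicate 3 (adjusted p = 0.0731 and 0.0611). PRMT5, another arginine methyltransferase, and the cleavage factor CPSF100 rose in efs by 0.40 and 0.39 (adjusted p = 0.000365 and 0.00254). Of the H2B ubiquitination genes, UBC2 and UBC1 rose in efs by 0.43 and 0.28 (adjusted p = 1.32e-05 and 0.00668), and UBC1 lost its call with median-of-ratios factors (0.17, adjusted p = 0.101). Of the SWR1 and H2A.Z genes, GAS41, HTA8 and AT2G47210 rose in K36A by 0.39, 0.46 and 0.25 (adjusted p = 0.00153, 0.0103 and 0.0283). In efs GAS41 and AT2G47210 rose too, by 0.24 and 0.25 (adjusted p = 0.0152 and 0.0192), and HTA8 was at -0.04. These 2 efs calls were lost on the median-of-ratios scale (adjusted p = 0.132 and 0.103), that of GAS41 also without Col replicate 3 (adjusted p = 0.0666), and that of AT2G47210 without efs replicate 1 or 2 or Col replicate 2 or 3 (adjusted p = 0.0591 to 0.0820). The K36A call of AT2G47210 was lost on the median-of-ratios scale (0.15, adjusted p = 0.122) and without K36A replicate 1 or 3 or Col replicate 2 or 3 (adjusted p = 0.0815, 0.0642, 0.0849 and 0.109).

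**Figure D4:**
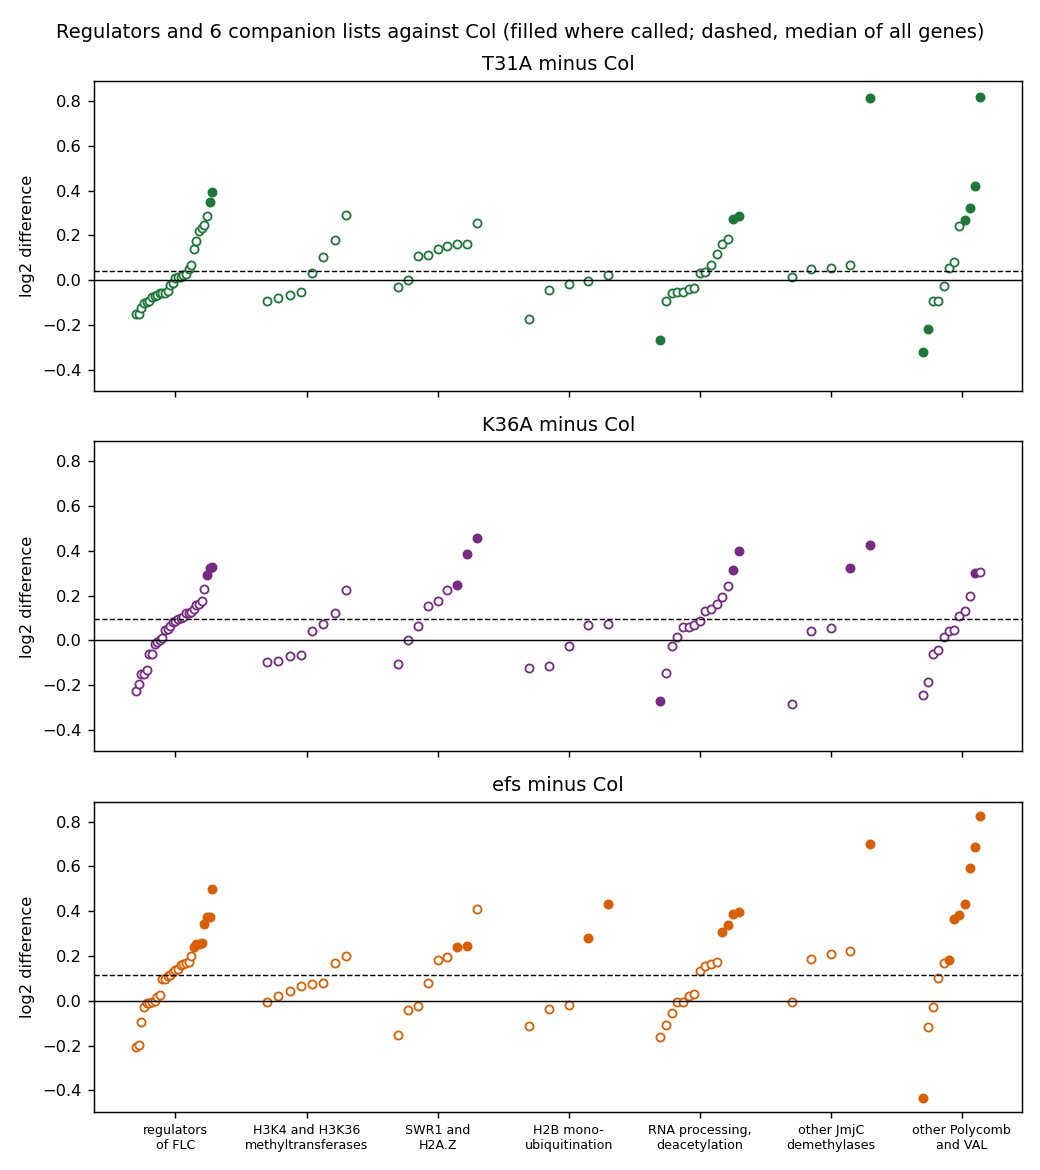
Log2 differences from Col of the 30 tested regulators and of the 54 tested genes of 6 companion lists, with one panel for each mutant; points are genes, filled where called, and the dashed line is the median of all tested genes. The highest points are ULT1 and JMJ30 in T31A and efs, and no methyltransferase gene is filled in any panel.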

How the data were processed

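Transcript levels were deposited as 1 table of TPM (transcript level scaled to gene length and library total) for 12 libraries, with all value columns mapped to a library by title and 0 left unmapped. The authors named the columns as gene counts, but each sums to 1000000, so the values were treated as TPM. Per the submitters' processing notes the build was TAIR10, with HISAT2 2.1.10, fastp 0.20.1 and DESeq2 1.26.0 as tools. The read counter and its use of strand were not given in the sources used here. In the deposited TPM the gene length is the gene span with introns, so levels between genes were compared only as recovered reads per kilobase of merged exon. Reads recovered as TPM times span were whole within 0.01 for 99.978% to 99.989% of genes under 1000 reads in each library. Names, spans, overlaps and sequences came from RefSeq TAIR10.1, in which 23745 of the locus codes were found and 171 were not. Levels of the 12 regulators that overlap another annotated gene are uncertain.

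Genes with at least 1 TPM in at least 3 libraries were tested on log2(TPM + 1) with limma 3.58.1 in R 4.3.3. All 12 libraries, 4 groups and 6 contrasts were in 1 fit with a mean-dependent prior variance, and p-values were adjusted by Benjamini-Hochberg over 19984 genes. The procedure was also run on simulated data with the same extra spread for all genes and changes in T31A alone. That simulation held no library that stands apart and no shift of the median, so it does not bear on these. No harvest time or library batch is given, and nothing says that libraries came from separate cultures, so p-values measure only how these libraries vary, which may be technical.

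The regulators, the companion lists and the alternatives were chosen with earlier results of these data known. Full values are given for regulators called against Col with an absolute log2 difference of at least 0.3, and up to 3 genes with the smallest adjusted p are named per companion list. Values of further regulators are printed by role. Alternatives were pseudocounts of 0.1 and 5, no filter, a mean TPM of at least 5, median-of-ratios factors, quantile normalization, a replicate block, the 2 groups alone, each library left out and a threshold of 0.3 beside the adjusted p. Their use for companion genes and for single regulators between mutants was added after seeing the data.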

Additional observations from a re-analysis of the deposited data

How the results depend on the processing

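Of the 13 calls of regulators against Col, 6 held under all 20 alternatives: VIP3 and MSI1 in T31A, and FRL1, VIP3, VEL1 and MSI1 in efs. No regulator called with all libraries changed direction. The lost calls named for single genes above are not full lists, since quantile normalization and the 2 groups alone ended further calls. The count of called regulators in K36A against Col was 0 when the 2 groups were fitted alone. In efs against Col it was 5 with median-of-ratios factors, 5 with quantile normalization, 4 with the 2 groups alone and 4 with a difference of at least 0.3. It was 1 for T31A against K36A with a difference of at least 0.3, and 6 for T31A against efs with the 2 groups alone. For K36A against efs it was 2 with a mean TPM of at least 5, with median-of-ratios factors, with quantile normalization and with the 2 groups alone, and 0 with a difference of at least 0.3. The causes were not tested.

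Leaving out 1 library gave 2 to 3 called regulators in T31A, 1 to 8 in K36A and 5 to 13 in efs against Col, with the K36A and efs counts highest without Col replicate 1, and lowest without Col replicate 2 in K36A and without efs replicate 1 or 3 in efs. It gave 1 to 3 for T31A against K36A, 2 to 6 for T31A against efs and 0 to 7 for K36A against efs, again highest without Col replicate 1. A Col library is not part of a difference between mutants and enters only through the filter and the spread shared in the fit. The medians over the regulators stayed at -0.027, -0.086 and -0.08 without Col replicate 1. In the fit without that library, 28.4%, 36.5% and 51.8% of all tested genes were called in T31A, K36A and efs against Col. Same-numbered libraries did not deviate together (correlations -0.244 to 0.359 over 18 pairs, beside -0.342 to 0.324 over 36 pairs of other numbers), so the numbers were not taken as pairs. With the replicate block the counts were 2 in T31A, 4 in K36A and 7 in efs against Col and 2 in each comparison of mutants. Only VIN3 was close to 0 reads, and every other regulator had at least 100 reads in each library. Counting noise still adds to the spread of regulators with few reads, such as FRL1, and its part was not tested.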

Other observations

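Some genes that overlap a regulator on the opposite strand changed in efs. AT2G43400, which overlaps FPA by 46 bases, differed by 0.84 in efs against Col (adjusted p = 9.23e-06), and FPA by 0.02 (adjusted p = 0.918). AT3G10405, which overlaps FLD by 75 bases, differed by -0.39 in efs (adjusted p = 0.000871) and by -0.22 in K36A (adjusted p = 0.0442), where FLD was at 0.14 and 0.18 without a call. AT2G23390, beside CLF with 22 shared bases, differed by -0.36 in efs (adjusted p = 0.000353), where CLF was called at 0.26. The part of shared reads in these levels was not tested.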
